A study of Drosophila melanogaster with 2 samples.

Results

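Peaks of the abrupt protein (ab) that lay close to a gene but outside its promoter were examined in chromatin immunoprecipitation and sequencing (ChIP-seq) data of Drosophila melanogaster embryos. A reproducible peak was taken as gene-proximal when its summit stood more than 500 bp and at most 5000 bp from the nearest transcription start site (TSS) of a protein-coding transcript, in either direction. On 6 chromosome arms 527 peaks met this rule, which was 31.7% of the reproducible list (95% Wilson interval 29.5 to 33.9%). The rest of the list was made up of 883 promoter peaks (53.1%), with a summit at most 500 bp from a TSS, and 254 distal peaks (15.3%), farther than 5000 bp from any. The embryos came from the transgenic line ab-GFP, which stably carries a green fluorescent protein fused to the C-terminus of ab, and chromatin was precipitated with an antibody against that tag. They were whole embryos of both sexes, pooled and collected between 0 and 24 hours of age, so the cell types behind a peak are unknown. Both biological replicates came from this line and formed 1 group, and no other genotype, age or treatment was analysed here. The lists hold regions with scores and no read counts, so the depth behind them is unknown and the intervals given on shares cover counting error alone.

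The protein ab is a transcription factor with a BTB domain, through which such proteins pair with each other, and zinc fingers, which contact DNA. In Drosophila it is known for limiting dendrite branching of sensory neurons and for its part in the attachment of muscles to the epidermis. Sequence in introns and just upstream of promoters often holds enhancers, which are read by combinations of transcription factors, but a ChIP-seq peak alone does not show which gene a site acts on. Genes are therefore named below by the nearest TSS only.

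Sequences at the summits are shown for the 4 strongest gene-proximal peaks among those whose sequence can be printed, at cbt, Lk6, ph-p and CG9663, because they carry the highest signals. A further 4 are shown as the strongest others that held the word ACAGTG, as slp2 and chif did, or the word CTGAGA, as did CG31668 and ImpL2. Both are words of 6 bases that were more frequent at summits than at both flanks. Each run is 101 bp centred on the summit, on the plus strand of the RefSeq assembly that matches dm6. Their positions are chr2L:481017-481117 (cbt), chr3R:11760996-11761096 (Lk6), chrX:2137314-2137414 (ph-p), chr2L:3302138-3302238 (CG9663), chr2L:3832469-3832569 (slp2), chr2L:16351457-16351557 (chif), chr2L:2203255-2203355 (CG31668) and chr3L:4228282-4228382 (ImpL2). The slp2 and CG31668 windows are intergenic and the other 6 are intronic. The chif window is at a weaker peak than the chif peak described below, and is as near to Hyls1 as to chif. That weaker peak had 42.7 in replicate 1, 141.9 in replicate 2 and 214.0 in the pool. The CG31668 window is likewise at the weaker of the peaks near that gene (32.2, 107.5 and 141.7). Capitals mark the 7 words that were called against both flanks, on either strand. These were AATAGT (at 10.2% of gene-proximal summits), CTGAGA (6.45%), ATATTA (15.4%), AACATT (15.6%), AAATAT (25.2%), ACAGTG (13.1%) and ATATGA (11.0%). The window at CG9663 held none of them.
cbt: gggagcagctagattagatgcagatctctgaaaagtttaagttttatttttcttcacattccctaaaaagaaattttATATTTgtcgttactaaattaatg
Lk6: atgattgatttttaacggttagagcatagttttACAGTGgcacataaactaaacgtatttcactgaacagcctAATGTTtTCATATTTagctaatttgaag
ph-p: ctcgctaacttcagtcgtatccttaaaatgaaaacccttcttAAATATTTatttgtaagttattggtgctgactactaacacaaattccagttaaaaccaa
CG9663: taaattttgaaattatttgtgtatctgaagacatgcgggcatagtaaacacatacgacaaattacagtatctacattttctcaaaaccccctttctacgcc
slp2: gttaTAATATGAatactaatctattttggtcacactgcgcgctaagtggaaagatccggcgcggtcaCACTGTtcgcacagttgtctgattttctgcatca
chif: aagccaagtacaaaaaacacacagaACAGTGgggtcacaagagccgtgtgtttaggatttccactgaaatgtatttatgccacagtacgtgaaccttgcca
CG31668: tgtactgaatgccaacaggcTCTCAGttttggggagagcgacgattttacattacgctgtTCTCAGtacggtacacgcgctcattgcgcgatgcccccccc
ImpL2: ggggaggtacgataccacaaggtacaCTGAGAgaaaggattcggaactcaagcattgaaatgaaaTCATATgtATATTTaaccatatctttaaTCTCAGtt

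The 15 strongest gene-proximal peaks were at genes of several kinds, among them kinases, chromatin proteins and transcription factors. Their pooled signals, which are the authors' score of a region against its control on a scale the files do not state, ran from 275.5 to 1007. The median of all 527 was 74.4 (interquartile range 59.6 to 103.7). Of these 15 peaks 12 were intronic and 3 intergenic, and each of the 15 was matched, to within 200 bp of the summit, in the top regions of either replicate (as many as the reproducible list holds). Replicate 2 gave the higher signal at 9 of them and replicate 1 at 6, and the log2 difference of replicate 2 minus replicate 1 stayed between -0.52 and 0.38.

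The strongest peak of the whole list stood 1379 bp upstream of the TSS of cbt, a transcription factor gene, inside the first intron of ush (2L, 480881 to 481311). Its signal was 435.5 in replicate 1, 551.1 in replicate 2 and 1007 in the pool. Lk6, a kinase of the translation factor eIF4E, had a peak in its own first intron 967 bp upstream of the nearest TSS (3R, 11760872 to 11761203), with 236.2 and 298.7 in replicates 1 and 2 and 522.3 in the pool. In both replicates the peak at cbt was higher than that at Lk6. The peak at ph-p, which encodes a subunit of a Polycomb repressive complex, lay 509 bp from a TSS, just inside the limit of the rule (X, 2137178 to 2137544, 303.3 in replicate 1, 211.9 in replicate 2 and 509.7 pooled). At CG9663 the peak was 942 bp downstream of the TSS in an intron (2L, 3301987 to 3302322), with signals of 240.0, 257.7 and 499.3. Replicate 1 placed ph-p above Lk6 and CG9663, and replicate 2 placed it below both, so the replicates ordered these 3 peaks differently.

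Chromatin and cell cycle genes were also among the strongest. HmgZ, a chromatin protein with an HMG box, had an intronic peak (2R, 21703196 to 21703650) with 217.6 in replicate 1, 174.4 in replicate 2 and 400.4 in the pool. Adf1, a transcription factor with a MADF domain, followed with 199.8, 160.1 and 352.7 (2R, 6662896 to 6663249), and chif, a Dbf4-related regulator of DNA replication, with 152.8, 167.7 and 348.3 (2L, 16351060 to 16351395). These 3 peaks lay in introns between 524 and 990 bp from a TSS. Tousled-like kinase (Tlk) had 134.8, 175.4 and 306.6 at an intronic peak 2328 bp downstream (X, 3742069 to 3742362). The nuclear protein gene tara, a member of the trithorax group, had 174.0, 127.6 and 304.1 at an intergenic peak 3153 bp upstream (3R, 16222330 to 16222622). Cyclin B (CycB), a partner of the mitotic kinase, was the nearest gene to an intergenic peak 3368 bp downstream of its TSS, with 146.7, 157.9 and 303.7 (2R, 22802798 to 22803085). Signalling kinases closed the group. Raf, the kinase above MEK in the MAP kinase cascade, had 126.0, 143.0 and 275.6 (X, 2297573 to 2297865), and Csk, which inhibits Src family kinases, had 145.3, 135.3 and 275.5 (3R, 11649515 to 11649781). CG11050 (409.2), CG3726 (326.3) and CG3149 (307.0) completed the 15 by pooled signal.

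**Figure D1:**
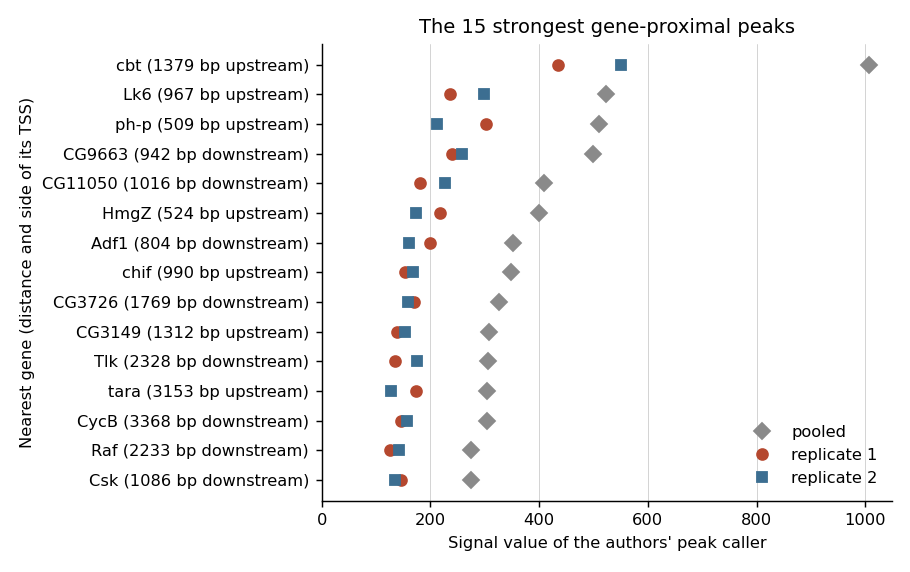
Signal values of the 15 strongest gene-proximal peaks, with the pooled list (diamonds), replicate 1 (circles) and replicate 2 (squares) on a linear axis, and the nearest gene with the distance and side of its TSS down the page. The peak at cbt stands apart with 1007 in the pool, the other 14 lie between 275.5 and 522.3, and the replicates change places from gene to gene.

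Values at the limits of the rule are given as a description. Just inside the lower limit stood CG5854 (508 bp, signal 56.7), ph-p (509 bp, 509.7) and ITP (510 bp, 56.9), and just outside it CG17896 (495 bp, 211.5), sick (494 bp, 131.2) and prage (493 bp, 170.7). Just inside the upper limit were peaks near tara (4957 bp, 66.2), cno (4928 bp, 82.1) and Meltrin (4890 bp, 82.8), and just outside it peaks near ush (5016 bp, 52.9), CG4004 (5046 bp, 407.5) and Lrch (5061 bp, 126.3).

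Gene-proximal sequence held a smaller share of the reproducible peaks than of the bases, in a list of which promoters held 53.1%. The window from 500 to 5000 bp covers 56.8 Mb, or 42.5% of the 133.6 Mb on these arms, and 31.7% of the reproducible peaks fell in it (0.745-fold). The pooled list from which the reproducible peaks were drawn holds 21376 regions, of which 7.78% are reproducible peaks. Of its regions in the window 5.56% of 9476 were reproducible, against 14.6% of 6043 in promoters and 4.34% of 5857 at distal positions. Of the other 19712 regions of that list 45.4% lay in the window, so the difference, reproducible minus other, was -13.7 percentage points (two-sided Fisher's exact p = 5.1e-28). This test and those below treat peaks as independent, although 57 of the 527 intervals (10.8%) overlapped another reproducible peak.

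Within the window the density of peaks was highest next to the promoter. Between 500 and 1000 bp there were 166 peaks, or 14.1 per Mb, with 18.8 per Mb upstream and 11.0 downstream of the TSS. Between 1000 and 2000 bp there were 161 peaks at 9.43 per Mb. The densities at 2000 to 3000, 3000 to 4000 and 4000 to 5000 bp were close to each other, at 6.98, 7.16 and 7.44 per Mb, with 83, 64 and 53 peaks. Promoters had 57.6 per Mb and distal sequence 4.13 per Mb. Median signals over the 5 bins, from near to far, were 78.3, 71.6, 66.5, 73.6 and 82.1, with no steady order by distance. The median distance was 1529 bp (interquartile range 868.5 to 2800.5).

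**Figure D2:**
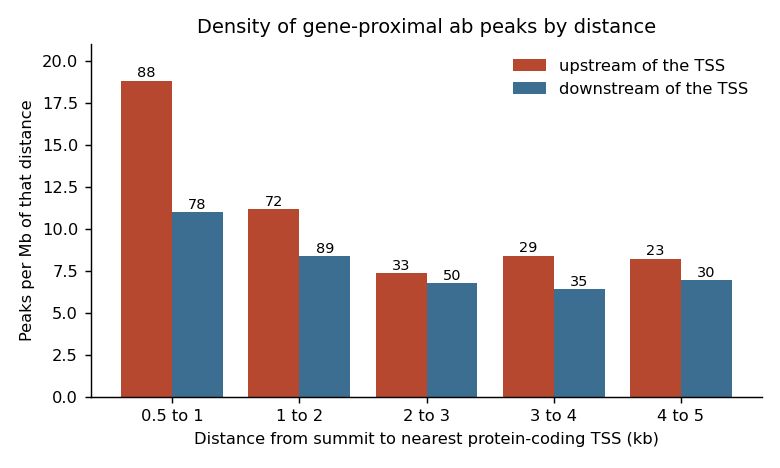
Peaks per Mb of sequence at each distance from the nearest protein-coding TSS, upstream and downstream, with the number of peaks above each bar. Density upstream was 18.8 per Mb between 500 and 1000 bp and at most 11.2 in the bins beyond.

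More gene-proximal peaks lay upstream than the share of upstream bases. Upstream of the TSS were 245 peaks and downstream 282, so 46.5% were upstream (95% Wilson interval 42.3 to 50.8%) against 38.5% of the bases of the window (two-sided exact binomial p = 0.000196). Of the promoter peaks 83.5% were upstream. The difference of 8.03 percentage points was 4.23 without replicate 1, that is with the strongest regions of replicate 2 alone (exact binomial p = 0.0368), and 7.18 without replicate 2 (exact p = 0.00113). Upstream does not mean outside the gene, since 108 peaks upstream of the nearest TSS lay in an intron of that same gene, downstream of another of its start sites, as at Lk6 and ph-p. The 38.5% counts all bases of the window, of which coding sequence made up 26.1% and held 2 peaks. The upstream share of the bases outside coding sequence was not computed, and the excess was not tested against it.

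Introns held most gene-proximal peaks, and coding sequence hardly any. Summits of 371 peaks (70.4%) were intronic, against 47.7% of the other 8949 pooled regions in the same window and 39.4% of its bases (Fisher's exact adjusted p = 4.0e-24 over 6 classes). Coding sequence held 2 peaks (0.380%), nearest to Cib2 (in the gene otp, signal 191.9) and CG10357 (73.8), which are named because of the low count, against 24.6% of the other regions and 26.1% of bases (adjusted p = 3.6e-58 by the same exact test). Intergenic sequence held 117 peaks (22.2% against 19.7% of the other regions, exact adjusted p = 0.24). The 3′ UTR held 9 peaks, among them CG3788, and 1.71% against 3.39% did not pass (exact adjusted p = 0.0648), although that difference did pass in 4 alternatives, at -2.16 to -3.37 points. The 5′ UTR held 9 (1.71% against 1.82%, exact adjusted p = 1) and other exons 19 (3.61% against 2.78%, exact adjusted p = 0.333).

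Of the 371 intronic peaks 327 lay in the body of the nearest gene, 41 only in another gene, as at cbt within ush, and 3 in no protein-coding gene. First introns of the nearest gene held 276 of the 327, among them that of Lk6, and 51 lay in later introns alone. Median signal was 76.6 at intronic and 72.1 at intergenic peaks. Among the 117 intergenic peaks 90 were upstream of the nearest TSS, including those at tara and CG3149, and 27 were downstream, including that at CycB. First introns and the side of intergenic sequence were not counted in the other pooled regions or in the bases of the window. No preference of ab can therefore be read from these counts.

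**Figure D3:**
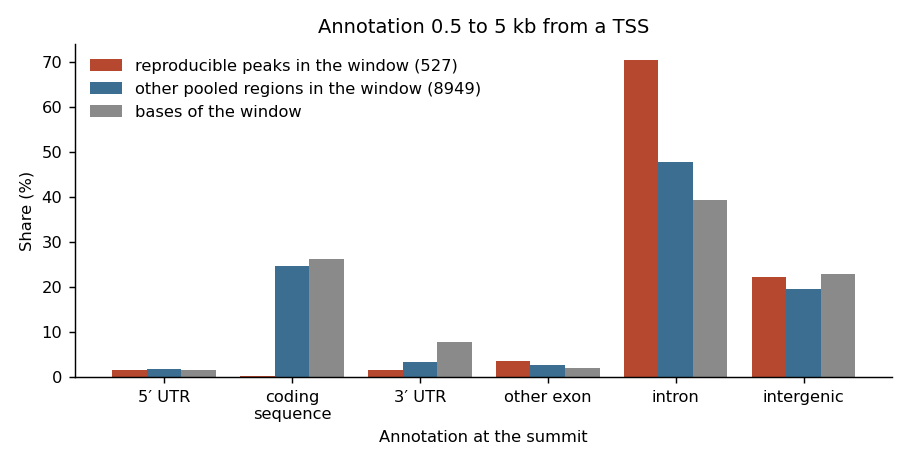
Share of summits by annotation for the 527 gene-proximal peaks, the 8949 other pooled regions of the same window and the bases of that window, in percent. Introns hold 70.4% of the gene-proximal peaks against 47.7% of the other regions, and coding sequence 0.380% against 24.6%.

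The arms differed in density. Arm X, with ph-p, Raf and Tlk, had 121 gene-proximal peaks at 11.6 per Mb of window, 22.96% of them against 18.3% of window bases. Densities were 9.86 per Mb on 2R (106 peaks), 9.34 on 2L (98), 8.54 on 3R (114) and 7.71 on 3L (87). Chromosome 4 had 1 peak in its 0.554 Mb of window (1.80 per Mb). These densities were not tested.

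Gene-proximal peaks were spread over 438 genes. These are 3.14% of the 13945 protein-coding genes tested for a nearest peak, and 17 peaks stood at the same distance from more than 1 gene. A single gene-proximal peak was found at 363 genes, 75 had at least 2 and 21 had at least 3. Of the 438 genes 93 (21.2%) also had a promoter peak, against 6.14% of all protein-coding genes, and at 49 of the 93 the strongest gene-proximal peak exceeded the strongest promoter peak, with the reverse at 44. At cbt the 2 pooled signals were 1007 and 156.5, and at ph-p 509.7 and 64.2. The median gene length was 10964.5 bp for the 438 genes, 4033.5 bp for the genes with a promoter peak and 2166 bp for all. Long genes hold more sequence within the window, and the part of length in these counts was not tested.

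The forkhead gene CHES-1-like and aop, which encodes the Ets-domain repressor Yan of the Ras pathway, had 6 gene-proximal peaks each. Those of CHES-1-like were all intronic, stood between 744 and 3729 bp from a TSS and had signals of 52.1 to 179.3, the strongest with 82.9 in replicate 1 and 94.3 in replicate 2 (X, 7700318 to 7700457). With 2 promoter peaks of 100.04 and 122.8 they made a run of 8 summits over 16238 bp. Those at aop had 52.3 to 91.2 and included a pair of summits 200 bp apart whose intervals overlapped and which matched the same summit in each replicate (34.1 and 28.9). Replicate signals at the strongest were 38.9 and 49.1.

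The peaks at tara, 5 in number, ran from 66.2 to 304.1 and lay 1129 to 4957 bp away. Around Rh5, a rhodopsin of photoreceptors, 5 intergenic peaks lay within 5779 bp. The strongest (2L, 12010440 to 12010949) had 22.3 in replicate 1 and 131.8 in replicate 2. All 5 at Rh5 were higher in replicate 2, but they are not 5 separate sites. Some of their intervals overlapped, and 3 summits at least 500 bp apart were left after merging. The strongest and a peak that overlapped it matched the same summit of replicate 1. COX7AL2, which encodes a cytochrome c oxidase subunit, had 4 peaks, and with 2 nearest to CG31668 they formed 6 summits over 6112 bp (2L, 2196938 to 2203361). The strongest of these, at CG31668, had 74.0 in replicate 1, 128.5 in replicate 2 and 204.0 in the pool. Replicate 1 was the higher at 2 of the 6, replicate 2 at 3, and 1 had no listed summit in replicate 1. Genes with 3 peaks included HmgZ, Tlk, Raf, Trl and the transcription factor gene NFAT, and at HmgZ 2 of the 3 summits shared an interval.

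Another reproducible summit within 2000 bp was found for 30.7% of gene-proximal peaks (162 of 527), against 18.9% of promoter peaks (adjusted p = 2.0e-06) and 19.3% of distal peaks (adjusted p = 0.00205), by two-sided Fisher's exact tests adjusted over the 8 comparisons of peak classes. The nearest other summit was again a gene-proximal peak for 108 of the 162, as at aop and Rh5, a promoter peak for 51 and a distal peak for 3. A distal summit, over 5000 bp from any TSS, cannot lie within 2000 bp of a promoter summit. The comparison with distal peaks is therefore partly set by the distance rule, and it was not repeated without promoter neighbours. The difference from distal peaks, 11.4 percentage points, was 6.66 and did not pass with an upper limit of 2000 bp (exact adjusted p = 0.0827), nor did it among the peaks above the median signal of the list (5.33, exact adjusted p = 0.374). Of all 527, 284 had no other reproducible summit within 5000 bp.

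Gene-proximal peaks passed the median signal of the list more often than distal peaks did, though not under every alternative. Above the median of the list were 49.5% of gene-proximal peaks, 53.0% of promoter peaks (exact adjusted p = 0.258) and 40.6% of distal peaks, a difference of 8.97 points from the last (Fisher's exact adjusted p = 0.0431). That call was lost with a lower limit of 1000 bp (6.26 points, exact adjusted p = 0.221) or an upper limit of 2000 bp (7.68 points, 0.0827). With TSSs of transcripts of any kind it was 15.3 points (exact adjusted p = 0.00129).

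A peak was called matched in a replicate when one of that replicate's top regions, taken in the same number as the reproducible list, had a summit at most 200 bp away. Over all reproducible peaks 53.5% were matched in both. Gene-proximal peaks had 56.9% (300 of 527), promoter peaks 52.3% and distal peaks 50.8%, and neither difference passed (4.60 and 6.14 points, Fisher's exact adjusted p = 0.144 for both). Among the peaks above the median signal of the list the difference from promoter peaks was 9.44 points (exact adjusted p = 0.00128), and with all listed regions of each replicate it was -1.84 points (exact adjusted p = 0.147). In 4 sets of falling pooled signal, which is drawn from the same replicates, 97.7% of the strongest gene-proximal peaks, with cbt and Raf among them, were matched in both, and the next strongest sets had 81.8%, 37.1% and 11.4%. A peak can therefore be listed as reproducible without being among the strongest of either replicate, as 23 gene-proximal peaks were.

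Gene-proximal peaks leaned to replicate 2 more than promoter peaks did. Among peaks listed at all in both replicates, and after centring on the median difference of all such peaks, 58.8% of gene-proximal peaks (294 of 500) had more signal in replicate 2, against 42.5% of promoter peaks (363 of 854). The difference was 16.3 percentage points (Fisher's exact adjusted p = 6.7e-08). Centring on these same peaks ties the shares of the classes to each other. Opposite leans are therefore not separate results, and the difference between classes is what can be read. Distal peaks gave 58.5% (exact adjusted p = 0.936; the difference was 0.325 points). The median log2 signal of replicate 2 minus replicate 1 was 0.17 in gene-proximal peaks, -0.12 in promoter peaks and 0.21 in distal peaks, with an SD over the gene-proximal peaks of 0.79. Median signals of gene-proximal peaks were 35.6 in replicate 1 and 43.1 in replicate 2, and of promoter peaks 40.8 and 38.9. The same lean was seen at intronic (58.4%) and intergenic peaks (55.9%). What differed between the 2 replicates was not tested.

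The peaks that leaned furthest to replicate 2 were at kibra, a Hippo pathway scaffold (6.42 in replicate 1, 75.6 in replicate 2, log2 difference 3.56), rdx, an adaptor of a ubiquitin ligase (9.71, 92.4 and 3.25), tna, a gene of the trithorax group (9.80, 77.6 and 2.98), CG5953 (2.70) and Pep (2.67). Furthest to replicate 1 were CG3788 (49.7, 8.79 and -2.50), CG33453 (-1.84), a peak at tara (35.3, 9.95 and -1.83), CG14434 (-1.78) and CG9328 (-1.78). Over 2-fold from the centre were 69 gene-proximal peaks towards replicate 2 and 23 towards replicate 1, and 408 lay within 2-fold. For promoter peaks 86 and 129 lay beyond. A value at a single peak far from the centre rests on 1 replicate.

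**Figure D4:**
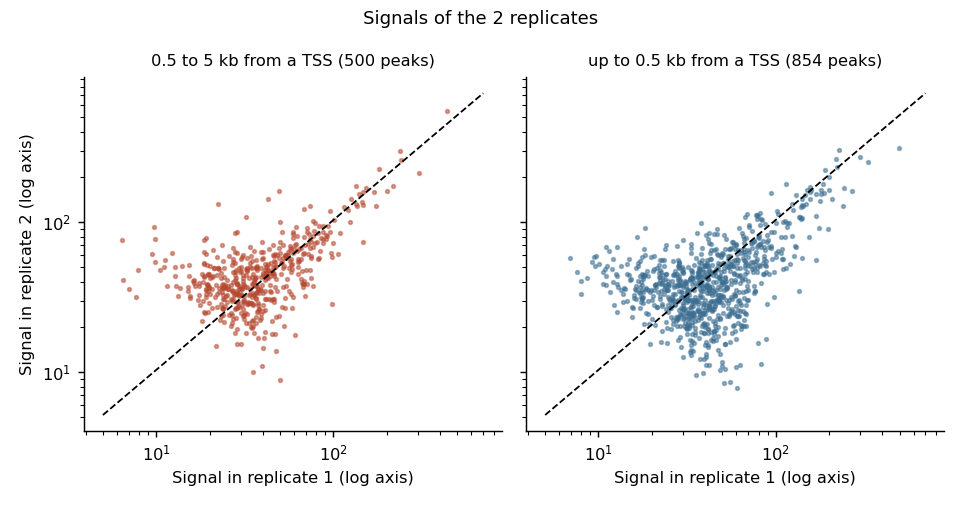
Signal of each peak in replicate 1 and replicate 2 on log axes, for gene-proximal peaks (left, 500 peaks listed in both) and promoter peaks (right, 854 peaks), with a dashed line at the median difference of all such peaks. Of the points 58.8% in the left panel and 42.5% in the right panel lie above the line.

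**Figure D5:**
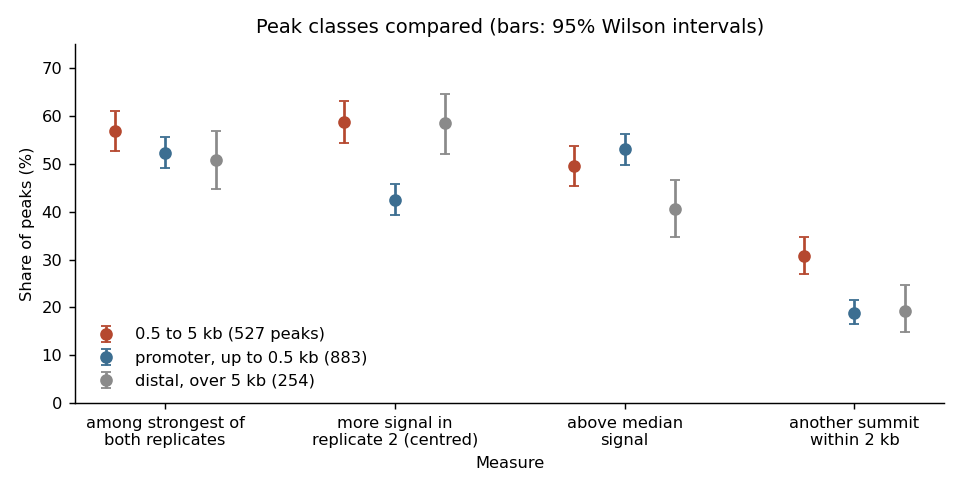
Share of peaks with each of 4 properties in gene-proximal, promoter and distal peaks, in percent, with 95% Wilson intervals as bars. Gene-proximal peaks stand above promoter peaks for more signal in replicate 2 (58.8% against 42.5%) and for another summit within 2000 bp (30.7% against 18.9%).

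Genes of 22 lists were counted by whether they were nearest to a gene-proximal peak, to be read beside the 3.14% of all protein-coding genes. In a short list, such as those of Notch or Hox genes, a count of none cannot be told apart from that share. Counts of promoter peaks are given for some lists only, and are to be read beside the 6.14% of all protein-coding genes with one. The lists were not tested, and the median gene length of each was above the 2166 bp of all genes, apart from the ribosomal proteins and the odorant and gustatory receptors. Some genes stand in several lists, among them Trl, ImpL2, ken, ab, chinmo and lola, so the counts of different lists are not separate. BTB transcription factors related to ab had such a peak at 6 of 16 genes, with a median gene length of 51914 bp. The strongest were at CG3726 (170.0 in replicate 1, 159.7 in replicate 2, 326.3 pooled) and at Trl, which encodes the GAGA factor (120.0, 120.0 and 241.0), followed by ab itself. The peak at ab lay 1571 bp upstream of its TSS (2L, 11208852 to 11209361), with 28.0 in replicate 1, 84.4 in replicate 2 and 99.7 in the pool. It overlapped the other gene-proximal peak of ab (2L, 11209057 to 11209566), which matched the same summit of replicate 1 and had 53.7 in replicate 2. Whether the tagged line holds further copies of ab was not tested, and signal at this locus is given with that limit.

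Chromatin regulators of both opposing groups had gene-proximal peaks. In the Polycomb group, which keeps genes silent, 3 of 20 genes had one. The neighbouring copies ph-p (509.7) and ph-d (69.1 in replicate 1, 70.4 in replicate 2, 140.9 pooled) led, followed by Psc (67.0, 38.4 and 120.0). The trithorax group and Brahma complex, which keep genes active, had 5 of 20, with tara (304.1), Trl (241.0) and trx, a histone methyltransferase (52.1, 70.6 and 100.2), the strongest. Among 16 insulator and boundary proteins Trl was the one gene with such a peak, while 5 had a promoter peak. In the Polycomb list and in the trithorax and Brahma list 4 of 20 genes each had a promoter peak.

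Growth signalling genes followed. In the insulin, TOR and Lk6 list 6 of 22 genes had a gene-proximal peak, led by Lk6 (522.3), by ImpL2, a secreted antagonist of insulin-like peptides (59.4 in replicate 1, 77.8 in replicate 2, 137.0 pooled), and by the insulin receptor gene InR (33.9, 53.2 and 97.3). The Ras and MAP kinase list had 4 of 25, at Raf (275.6), RasGAP1 (95.6, 86.4 and 185.0), aos, a secreted inhibitor of the EGF receptor (65.8, 56.4 and 113.5), and aop. In the Hippo pathway, which restrains tissue growth, 5 of 21 genes had one, with Diap1, an inhibitor of apoptosis (39.3, 74.1 and 106.5), kibra (97.1 pooled) and the protocadherin gene ds (51.9, 36.7 and 84.5) the strongest. The JAK-STAT list had 2 of 11, ken (94.1) and Stat92E (69.1).

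Among signalling pathways of patterning, the Dpp list had 3 of 18, at Mad, the transcription factor of the pathway (84.3 in replicate 1, 64.5 in replicate 2, 143.4 pooled), at the repressor gene brk (66.6, 39.0 and 115.3) and at shn (45.8, 70.0 and 97.3). The Wingless list had 1 of 22, the kinase gene sgg (52.9), and none of 20 Notch pathway genes was nearest to a gene-proximal peak. A promoter peak was found at 4 of the 20 Notch genes, 2 of the 22 Wingless genes and 1 of the 18 Dpp genes. The ecdysone list, the steroid response of insects, had 6 of 32, the strongest at ImpL2, Eip63E (20.8, 65.1 and 109.2) and the nuclear receptor gene Eip75B (19.5, 45.3 and 70.8). Epithelial polarity had 1 of 15, crb (67.4).

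Lists of neural and muscle genes had a gene-proximal peak at 7.89% to 20% of their genes. Dendrite patterning had 3 of 15 (ab, chinmo and lola, with pooled signals of 99.7, 68.7 and 59.0), and neural precursor and neuroblast fate 3 of 27, at elav, a neuronal RNA-binding protein (78.0 in replicate 1, 87.9 in replicate 2, 165.3 pooled), brat (99.5) and grh (98.9). Axon guidance and neural adhesion had 3 of 38, at Ptp10D (77.5), sli (68.3) and robo2 (64.8), although the median length of its genes was 39594.5 bp. Muscle attachment and tendon genes had 3 of 21, with sr, the transcription factor of tendon cells, the strongest (59.1, 62.1 and 126.0), then stck (99.0) and rhea, which encodes talin (55.8). Myoblast fate and fusion had 2 of 23, mbc (120.4) and kirre (94.3).

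Segmentation genes had 1 of 26, slp2, a forkhead transcription factor (2L, 3832403 to 3832634), with 146.6 in replicate 1, 73.9 in replicate 2 and 224.9 in the pool at an intergenic peak 4321 bp upstream. None of 11 Hox genes and cofactors and none of 92 cytosolic ribosomal protein genes was nearest to a gene-proximal peak, while 26 of the ribosomal protein genes had a promoter peak. The median ribosomal protein gene is 1315 bp long. Odorant and gustatory receptors had 2 of 119, Gr93a (76.9) and Gr93d (53.7). A promoter peak was found at 2 of the 26 segmentation genes and at none of the Hox genes or of these receptors.

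Summits of gene-proximal peaks were richer in A and T than their surroundings. Median GC content was 35.6% in the 101 bp at the summit and 43.6% in windows 300 bp to either side, and it was lower at the summit of 377 peaks and higher at 146 (exact sign test p = 1.5e-24, a test chosen after seeing the data). Medians were 38.6% against 44.1% at promoter peaks and 36.6% against 44.8% at distal peaks, so all 3 classes shared the direction. Other pooled regions in the window had a median of 45.5%. The windows at cbt and Lk6 printed above have 28.7% and 30.7%, and that at CG31668 54.5%.

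None of 17 searched motifs, some of them simple repeats, was called more or less often at summits than in flanks. Each flank window was 101 bp long and 300 bp away, and two-sided exact McNemar tests were adjusted over the motifs. The flanks were richer in G and C than the summits, which these tests do not allow for, and the motif tests were not repeated with the other flank. Unadjusted, 3 motifs had a p below 0.05, each less frequent at summits. These were GGAATG of the TEAD factors (1.90% of summits against 5.50% of flanks, exact adjusted p = 0.0574), CACACACA (2.47% against 5.88%, 0.0673) and GAGAG of the GAGA factor (10.4% against 15.2%, 0.155). All motifs were read on both strands, GAGAG also lies within the searched GAGAGAGA, and CGATA within TATCGATA. Over all 21376 pooled regions GGAATG was found in 4.66%, CACACACA in 2.68% and GAGAG in 13.5%.

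Gene-proximal summits differed from promoter summits in the promoter motif of DREF. The word CGATA was present at 10.2% of gene-proximal and 21.1% of promoter summits (two-sided Fisher's exact adjusted p = 1.8e-06). That difference of -10.8 points was -6.56 without replicate 1 (exact adjusted p = 0.00622). The longer DREF site TATCGATA was present at 0.190% of gene-proximal summits, that is 1 peak, against 3.40% of promoter summits (exact adjusted p = 0.000114). All pooled regions, promoters included, held CGATA and TATCGATA at 13.2% and 0.945%. The other pooled regions of the same window held them at 10.9% and 0.179%, and the flanks of gene-proximal peaks at 9.68% and 0.190%. Gene-proximal summits were thus close to the other regions of their window and to their flanks. Promoter summits were above these, but other pooled regions at promoters were not counted separately. No enrichment of either word at promoter peaks can therefore be read from these shares. Among the peaks above the median signal the difference in TATCGATA did not pass (exact adjusted p = 0.142). No motif passed against distal peaks, where CGATA was found at 11.0%.

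Of all words of 6 bases, with both strands counted together, 14 were called more frequent at gene-proximal summits (0.673%) and 10 less frequent. With the flank on the other side 69 and 46 were called, and 7 and 4 of them were shared with the first flank. AATAGT was found in 54 windows at summits, against 17 and 23 in the flanks, and in 5.17% of all pooled regions, compared with 10.2% of gene-proximal peaks. CTGAGA was found in 34, against 6 and 12 (6.45% of gene-proximal peaks and 3.43% of all pooled regions), and ACAGTG in 69, against 34 and 32 (13.1% and 6.67%). TTACAA (55 summits against 19 flank windows), AAAATT (120 against 70), CAGTGC (43 against 14) and ATTTTA (110 against 64) were called against the first flank but not against the other. ACAGTG was present at 12.2% of promoter and 11.8% of distal peaks too, AATAGT at 8.72% and 7.87%, and CTGAGA at 3.17% and 5.12%. The other 4 words shared by both flanks hold mostly A and T, as the summits do, and among the 4 less frequent were CGAGAG (6 summits against 30 and 33 flank windows) and CAGCCG (3 against 22 and 27). The number of words called more frequent ran from 0 to 132 over the alternatives, so a word called once is not a stable result. Of the 14 words, between 0 and 11 were called again in an alternative. The number was 0 with an upper limit of 2000 bp, 1 without replicate 1, 4 among the peaks above the median signal and 11 without replicate 2. A call against both flanks therefore does not make a word stable.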

How the data were processed

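Each file lists regions of 1 replicate, of the pool of both or of the reproducible peaks, as deposited by the authors. Per the deposited description files, reproducible peaks came from the irreproducible discovery rate method. Not given in the sources used here are the aligner and the peak caller. Each deposited signal value is the authors' score, and the deposited −log10 q-values were not used to rank. The reproducible list holds the strongest pooled regions and no other. Replicate lists hold 29996 and 30000 regions on the 6 arms (X, 4, and the left and right arms of 2 and 3). The dm3 lists were not used.

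Positions are 1-based on dm6, with genes from Ensembl release 115 (BDGP6.54) and sequence from RefSeq. Where annotations overlap, UTRs and coding sequence took precedence over other exons, and exons over introns. Tests were two-sided at 0.05 with Benjamini-Hochberg adjustment, in Python 3.11.15 with SciPy 1.17.1 and NumPy 2.4.6. Flank sides alternated by rank. The assignment of summits to TSSs and the test of words were checked on simulated data, the other calculations were not. With 1 group there is no test across samples.

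Peaks, gene lists and motifs were chosen with earlier results of these data known, and rdx was dropped from the trithorax list, to which it does not belong, after its value was seen. Named genes are nearest to the 15 peaks of highest signal, the 10 with the highest number of peaks, up to 3 of each list, the 5 peaks furthest to each replicate, 3 on each side of each limit, and the 10 words of smallest p that summits held more often than flanks. Words outside these 10, CG31668, Cib2, CG10357 and other examples were added after their values were seen. Alternatives were other limits, TSSs of any biotype, the peaks above the median signal, each replicate alone, other match and neighbour distances, no centring, other motif windows, the other flank and merged summits.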

Additional observations from a re-analysis of the deposited data

How the results depend on the processing

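Shares in the window, intronic share, upstream share, the lean to replicate 2 against promoter peaks and the neighbours against promoter peaks kept their direction and their side of 0.05 under every alternative run for them. Across all results 118 alternative values kept their direction and side, and 6 changed sign, none of them called either way. These were the match in both replicates against promoter peaks with all listed regions (-1.84 points), the lean to replicate 2 against distal peaks with an upper limit of 2000 bp (-1.09) and with merged summits (-0.636), and, with a replicate left out, the shares of other exons (-0.131 to 1.49), intergenic sequence (-0.502 to 3.01) and the 5′ UTR (-0.113 to 0.304). Against distal peaks, the share above the median signal lost its call with a lower limit of 1000 bp (6.26 points) and an upper limit of 2000 bp (7.68), and the share with another summit within 2000 bp with an upper limit of 2000 bp (6.66) and the peaks above the median signal (5.33). The share above the median has no value among peaks chosen to be above it. The match in both replicates against promoter peaks passed with the same peaks (9.44). The count of words called more frequent, 14 as reported, was 25 with a lower limit of 1000 bp, 0 with an upper limit of 2000 bp, 51 with TSSs of any biotype and 45 with windows of 100 bp to either side. It was between 2 and 132 without either replicate, and, with alternatives chosen after seeing the data, 47 with merged summits and 69 with the other flank. Flank sides alternated by rank, so an alternative that changed the set of peaks also changed the flank side of many of them. The counts mix these 2 changes, and the cause was not tested. Leaving out a replicate, the difference in the window ran from -14.7 to -12.8 points, that in introns from 24.2 to 31.4 and that in upstream share from 4.23 to 7.18. Without replicate 2, 504 peaks met the distance rule, and without replicate 1, 581. No paired analysis was possible because there is 1 group. Depth was unknown, and no alternative changes that.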

Other observations

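Start sites of non-coding genes lay near some of the gene-proximal peaks, which were defined by protein-coding genes alone. At 40 of the 527 the summit stood at most 500 bp from a non-coding TSS, 38 of them of ncRNA genes, 1 of a snoRNA gene and 1 of a tRNA gene. The strongest stood 33 bp from the TSS of lncRNA:CR31840 (2L, 14023953 to 14024160), with 49.2 in replicate 1, 161.9 in replicate 2 and 206.8 in the pool. The next stood 165 bp from lncRNA:CR44810 (2R, 24329446 to 24329671, signals 108.6, 84.6 and 196.8) and 227 bp from lncRNA:CR45668 (X, 5900133 to 5900271, signals 73.2, 83.9 and 163.0). The nearest protein-coding genes to these 3 peaks were hll, slbo, a C/EBP transcription factor, and Act5C, a cytoplasmic actin. These genes were chosen after their values were seen, and no test was made. The share of other pooled regions, other peak classes or window bases as near to a non-coding TSS was not computed. The count of 40 therefore has no background to be read against.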
